A study of Arabidopsis thaliana with 6 samples.

Results

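Proline metabolism in Arabidopsis thaliana is described here through 6 genes, taken by gene identifier from the 28775 genes of the count tables. P5CS1 (AT2G39800), P5CS2 (AT3G55610) and P5CR (AT5G14800) make proline, and ProDH1 (AT3G30775), ProDH2 (AT5G38710) and P5CDH (AT5G62530) break it down. All 6 passed the filter on low counts. In the myc2 shoots P5CS1 was lower and ProDH1 was higher than in the Col-0 shoots, P5CS2 did not pass the test, and the other members were lower.

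Poly(A) RNA of shoots was sequenced in 6 libraries, 3 from the myc2 mutant and 3 from Col-0, the wild-type accession. In both groups shoots of seedlings 2 weeks old were taken, grown in 16 h light and 8 h dark at 22 °C, with no treatment named for either. MYC2 is a transcription factor that carries out much of the response to the hormone jasmonate, and the comparison shows which transcripts differ where it is mutated. The sources used here do not name the mutant allele or the number of plants per sample.

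Proline is made from glutamate. Pyrroline-5-carboxylate synthetase (P5CS) reduces glutamate to an intermediate that becomes pyrroline-5-carboxylate, and pyrroline-5-carboxylate reductase (P5CR) turns this into proline. In mitochondria proline dehydrogenase (ProDH) oxidises proline back to pyrroline-5-carboxylate, and pyrroline-5-carboxylate dehydrogenase (P5CDH) returns it to glutamate. Plants build up proline under drought, salt and cold, when P5CS1 is induced and ProDH1 is repressed, and they use proline as a source of energy and nitrogen when the stress ends.

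Library totals lay between 25439397 and 26597891 reads in myc2 and between 21165967 and 30604815 reads in Col-0, so that 1 read was worth 0.0327 to 0.0473 CPM before scaling. Levels in CPM are read counts per library total, scaled by trimmed mean of M-values. The study calls its replicates biological, and nothing in the labels says that they came from separate plantings, so the spread behind each p-value is that of these samples and may be technical. Labels in the headers of the count tables were read here as sequencing runs, and whether they name runs was not tested. By these labels all 3 myc2 libraries shared 1 run, Col-0 replicates 1 and 2 shared another, and Col-0 replicate 3 had its own. No run read in this way holds both genotypes, so the effects of genotype and run are not separable here. MYC2 itself had 1822, 2007 and 1864 reads in myc2, against 4808, 4085 and 5087 reads in Col-0, and fell 2.70-fold (edgeR, adjusted p = 2.94e-08). All 6 shoot markers were read in every library, and 3 were lower in myc2, where 18.7% of all genes tested were lower. These 3 markers were RBCS1A and RBCS2B, which encode Rubisco small subunits, and SUC2, the phloem sucrose transporter. The summed level of the 6, mostly RBCS1A, was 25750 to 26650 CPM in myc2. It was 27650 to 34110 CPM in Col-0, highest in replicate 3. Against Col-0 replicate 3 alone the log2 fold change was −0.31 for GAPA, −0.28 for LHCB3 and −0.14 for LHCB1.1. Against Col-0 replicates 1 and 2 it was 0.002 for GAPA, −0.02 for LHCB3 and 0.02 for LHCB1.1. Of the 10 root markers 4 were tested and 3 rose, where 17.6% of all genes tested rose. These 3 were the endodermal and stele regulators SCR and SHR and the root and hypocotyl gene PYK10. The summed level of the 10 was 525.8 to 539.0 CPM in myc2 and 280.4 to 300.3 CPM in Col-0. Of this sum PYK10 was 468 ± 7.70 CPM in myc2 and 240.4 ± 15.0 CPM in Col-0 (SD, n = 3 each). Against Col-0 replicate 3 alone the log2 fold change was 0.17 for SCR and 0.30 for SHR. Over all Col-0 libraries it was 0.35 for each. RHD6, which defines root hair cells, was listed at 0 reads in all libraries, and these counts do not tell whether it was silent or left uncounted. EXPA7, COBL9 and PLT1 had at most 3 reads in any library and WOX5 at most 7. CASP1 had 3 to 13 reads per library, and ESB1, which was tested and did not pass, had 9 to 18. The part of these markers in the results was not tested.

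In an edgeR quasi-likelihood fit over 18961 genes, 5 of the 6 proline genes were called changed at an adjusted p under 0.05, 1 higher and 4 lower in myc2, where 36.3% of all genes tested were called, 17.6% higher and 18.7% lower. By role, 2 of 3 synthesis genes were lower and none was higher, while 2 of 3 breakdown genes were lower and 1 was higher. The median log2 fold change was −0.33 over the synthesis genes, −0.35 over the breakdown genes and 0.01 over all genes tested. A change of at least 2-fold was called for 3 members (P5CS1, ProDH1 and ProDH2), and for 6.55% of all genes. The ranges of the genotypes did not overlap for 5 members, as was so for 49.7% of all genes. Since the RNA came from whole shoots, fewer cells of a type and less RNA per cell cannot be told apart for any of these differences.

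**Figure D1:**
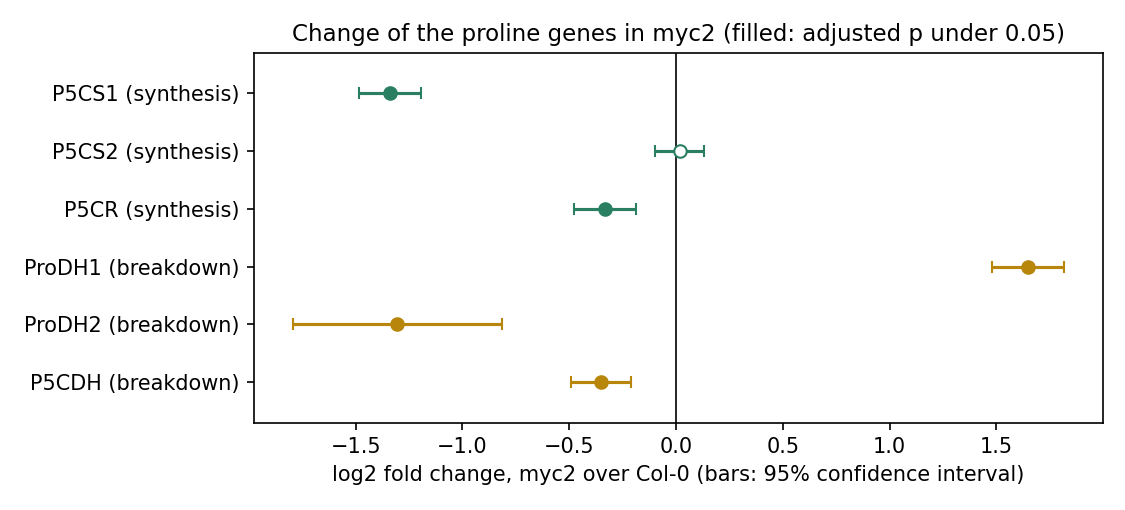
Fitted log2 fold change of each proline gene, myc2 over Col-0, with its 95% confidence interval, synthesis genes in green and breakdown genes in gold. Filled points passed an adjusted p of 0.05. P5CS1 at −1.34 and ProDH1 at 1.65 lie on opposite sides of 0, and the interval of P5CS2 spans 0.

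The first enzyme of synthesis is encoded by a pair of genes, of which P5CS1 is the stress-induced copy and P5CS2 the copy with a housekeeping role, needed in embryos and dividing cells. In the TAIR10.1 annotation P5CS1 lies on the minus strand of chromosome 2 (16598072 to 16603319) with 20 exons, and P5CS2 lies on the minus strand of chromosome 3 (20624020 to 20629295), also with 20 exons. The submitters' notes name TAIR10, and the count tables hold no coordinates. The 2154 aligned coding bases of the pair were 86.3% identical, and only 1.65% of the 31-base words of P5CS1 transcripts also occurred in P5CS2, so that most words of this length belong to 1 copy. Their most alike coding stretch of 150 bases, at bases 1219 to 1368 of either coding sequence, still has 8 differences, shown in capitals. It is printed because the contrast between these copies depends on telling their reads apart. It is spliced from chr2:16600130-16600440 and chr3:20625999-20626338, read on the minus strand.
P5CS1: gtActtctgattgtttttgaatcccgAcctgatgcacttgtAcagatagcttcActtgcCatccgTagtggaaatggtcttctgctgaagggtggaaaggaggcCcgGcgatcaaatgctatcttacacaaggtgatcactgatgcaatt
P5CS2: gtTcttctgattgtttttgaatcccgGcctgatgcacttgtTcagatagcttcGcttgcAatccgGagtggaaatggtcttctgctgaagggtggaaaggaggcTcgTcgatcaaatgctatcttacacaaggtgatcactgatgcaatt

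P5CS1 was at 96.5, 97.6 and 98.0 CPM in myc2 replicates 1 to 3, against 228, 247 and 265 CPM in Col-0 replicates 1 to 3. Every myc2 library was below every Col-0 library, and the myc2 libraries lay within 2 CPM of each other. The level averaged 97.3 ± 0.745 CPM in myc2 and 246 ± 18.3 CPM in Col-0 (SD, n = 3 each), a 2.53-fold fall (log2 fold change −1.34, SE 0.07, edgeR adjusted p = 2.80e-08). The size of this change was above that of 96.3% of the genes tested. AT2G39795, on the opposite strand and sharing 91 bases with P5CS1, had a log2 fold change of −0.07 (edgeR adjusted p = 0.670).

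P5CS2 was at 345.5, 347.0 and 345.6 CPM in myc2, against 338.3, 350.3 and 337.5 CPM in Col-0. The ranges overlapped, with the myc2 libraries inside the range of the Col-0 libraries. The log2 fold change was 0.02 with a 95% confidence interval of −0.10 to 0.13 (edgeR adjusted p = 0.834), and that interval does not reach the change of P5CS1. P5CS2 was the most abundant member per kb of exon in both genotypes.

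Dividing CPM by the annotated exon length makes the 2 copies comparable. P5CS1 made up 20.75%, 20.85% and 20.99% of the summed P5CS level in myc2, against 38.7%, 39.7% and 42.3% in Col-0. The share averaged 20.9 ± 0.119% in myc2 and 40.3 ± 1.88% in Col-0 (SD, n = 3 each). The sum of both copies was 157 ± 0.454 CPM per kb in myc2 and 206 ± 6.56 CPM per kb in Col-0, a ratio of 0.763, so P5CS2 held most of the P5CS transcript in either genotype. These shares and sums are a description, with no test.

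P5CR, a single gene whose enzyme carries out the last step of synthesis, lies on the minus strand of chromosome 5 (4785960 to 4787996) with 7 exons. It was at 94.0, 92.0 and 90.2 CPM in myc2, against 112, 110 and 125 CPM in Col-0. All 3 myc2 libraries were below all 3 Col-0 libraries. The mean of 92.1 ± 1.92 CPM in myc2 was 1.26-fold below the 116 ± 8.12 CPM in Col-0 (SD, n = 3 each; log2 fold change −0.33, edgeR adjusted p = 0.00212). The neighbouring gene AT5G14790, 112 bases away on the opposite strand, had a log2 fold change of −0.26 (edgeR adjusted p = 0.0413).

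**Figure D2:**
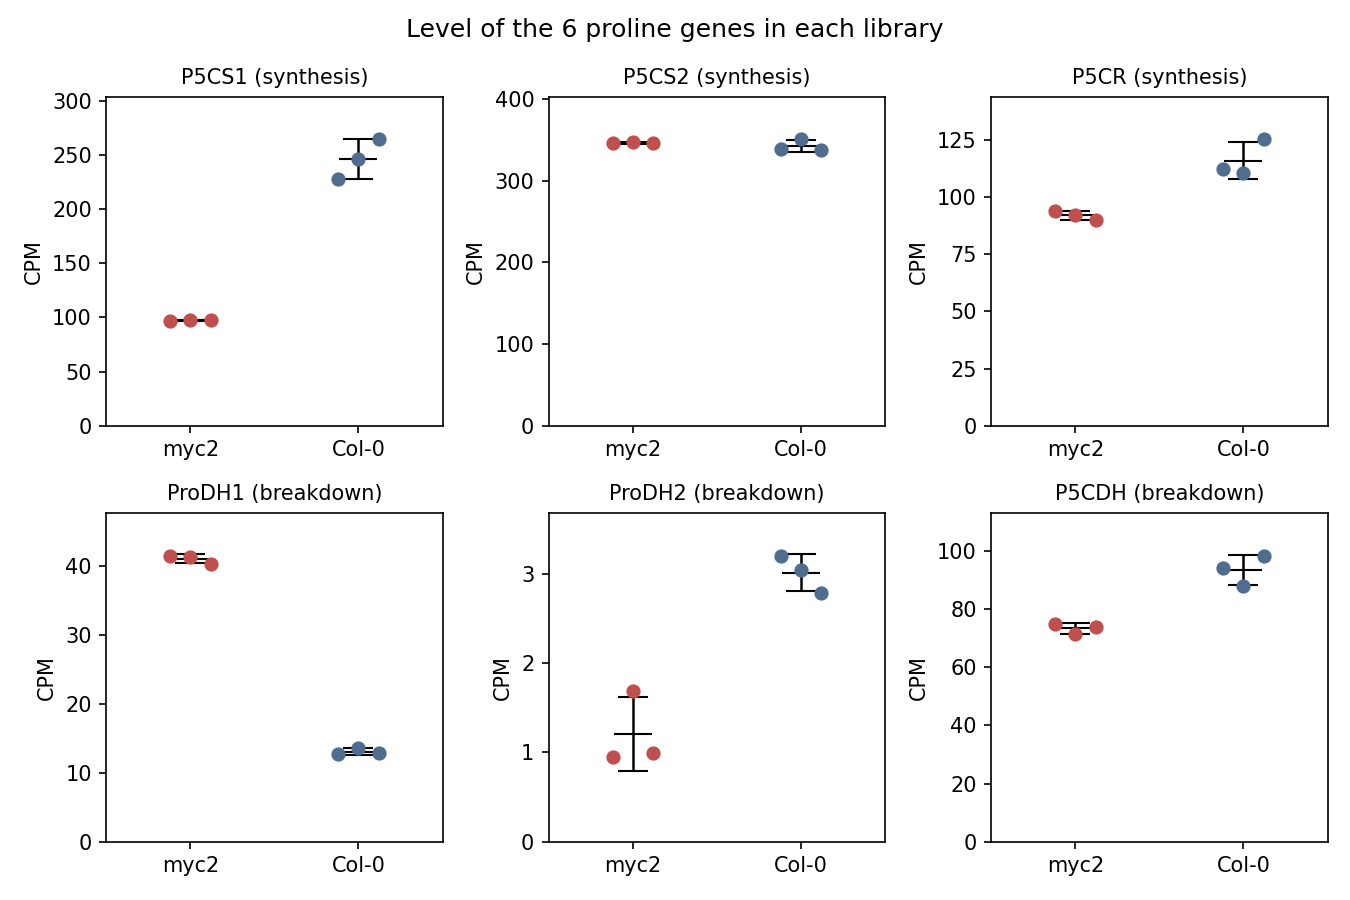
Level of each proline gene in CPM (linear axes from 0, a scale of its own in each panel), one point per library, with the mean and SD as bars, for 3 myc2 and 3 Col-0 libraries. ProDH1 alone lies higher in every myc2 library than in every Col-0 library, P5CS2 overlaps, and the other 4 genes lie lower in every myc2 library.

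ProDH1, named ERD5 in the annotation, encodes the main proline dehydrogenase of Arabidopsis and is induced by proline and by rehydration. It lies on the minus strand of chromosome 3 (12448636 to 12451556) with 4 exons. It was at 41.6, 41.4 and 40.4 CPM in myc2, against 12.8, 13.7 and 12.9 CPM in Col-0, with the 2 genotypes far apart and each within a narrow range. The mean of 41.1 ± 0.657 CPM in myc2 was 3.14-fold above the 13.1 ± 0.493 CPM in Col-0 (SD, n = 3 each; log2 fold change 1.65, SE 0.08, edgeR adjusted p = 1.77e-08), and 97.6% of the genes tested changed by less.

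ProDH2, the second proline dehydrogenase gene, is known for low and tissue-restricted expression, and it lies on the plus strand of chromosome 5 (15501126 to 15504269). It moved the other way. It had 25, 46 and 26 reads in myc2, against 75, 63 and 81 reads in Col-0, or 0.946, 1.68 and 0.991 CPM in myc2 against 3.20, 3.04 and 2.79 CPM in Col-0. All myc2 libraries were below all Col-0 libraries, although myc2 replicate 2 stood above the other two. ProDH2 fell 2.47-fold (log2 fold change −1.30, 95% confidence interval −1.80 to −0.81, edgeR adjusted p = 8.21e-04). At these read numbers the fall is less precise than that of P5CS1, whose interval ran from −1.48 to −1.20.

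The coding sequences of ProDH1 and ProDH2 were 76.7% identical over 1431 aligned bases, shared no 31-base word, and had 25 differences in their most alike 150 bases. Per kb of exon, ProDH1 was 97.7%, 95.9% and 97.5% of the summed ProDH level in myc2, against 79.2%, 81.1% and 81.4% in Col-0. The summed level was 19.5 ± 0.416 CPM per kb in myc2 and 7.49 ± 0.252 CPM per kb in Col-0 (SD, n = 3 each), a ratio of 2.60. ProDH1 alone differed more, at 3.14-fold, since ProDH2 was a larger share of the sum in Col-0.

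P5CDH, named ALDH12A1 in the annotation and a member of the aldehyde dehydrogenases, lies on the minus strand of chromosome 5 (25099003 to 25103312) with 16 exons. It was at 74.8, 71.2 and 73.8 CPM in myc2, against 93.9, 88.0 and 98.3 CPM in Col-0, without overlap. The mean of 73.3 ± 1.83 CPM in myc2 was 1.28-fold below the 93.4 ± 5.15 CPM in Col-0 (SD, n = 3 each; log2 fold change −0.35, edgeR adjusted p = 0.00133). The log2 fold change was near that of P5CR (−0.33).

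P5CDH overlaps SRO5 (AT5G62520) by 905 bases on the opposite strand, a pair known for small RNAs formed from the overlap under salt stress. SRO5 had 11, 9 and 8 reads in myc2, against 122, 112 and 162 reads in Col-0, and every myc2 library was far below every Col-0 library. It fell 15.2-fold (log2 fold change −3.93, edgeR adjusted p = 3.60e-08), at 0.350 CPM in myc2 and 5.39 CPM in Col-0. How the counting treated strand is not stated, so reads of the overlap cannot be assigned to one of the genes. The part of such reads in the P5CDH count was not tested. UBC3, next to P5CDH on its other side, had a log2 fold change of −0.32 (edgeR adjusted p = 0.0345). Its read numbers overlapped, with 801, 800 and 772 in myc2 against 709, 855 and 1145 in Col-0.

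Synthesis against breakdown was compared in each library as a ratio of levels per kb. The ratio of P5CS1 to ProDH1 was 1.70, 1.72 and 1.78 in myc2, against 13.0, 13.2 and 15.0 in Col-0, which placed the genotypes 7.93-fold apart with no overlap. Over both copies of each enzyme, the ratio of summed P5CS to summed ProDH was 8.06 ± 0.170 in myc2 and 27.5 ± 1.25 in Col-0 (SD, n = 3 each). The second steps differed little in their ratio. P5CR to P5CDH was 2.26 ± 0.0621 in myc2 and 2.23 ± 0.0756 in Col-0, and the ranges overlapped. Within breakdown the ratio of ProDH1 to P5CDH was 0.668 ± 0.0212 in myc2 and 0.168 ± 0.0154 in Col-0, 3.98-fold apart. The ratios are a description of transcript levels, with no test, and say nothing of proline content, which was not measured.

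**Figure D3:**
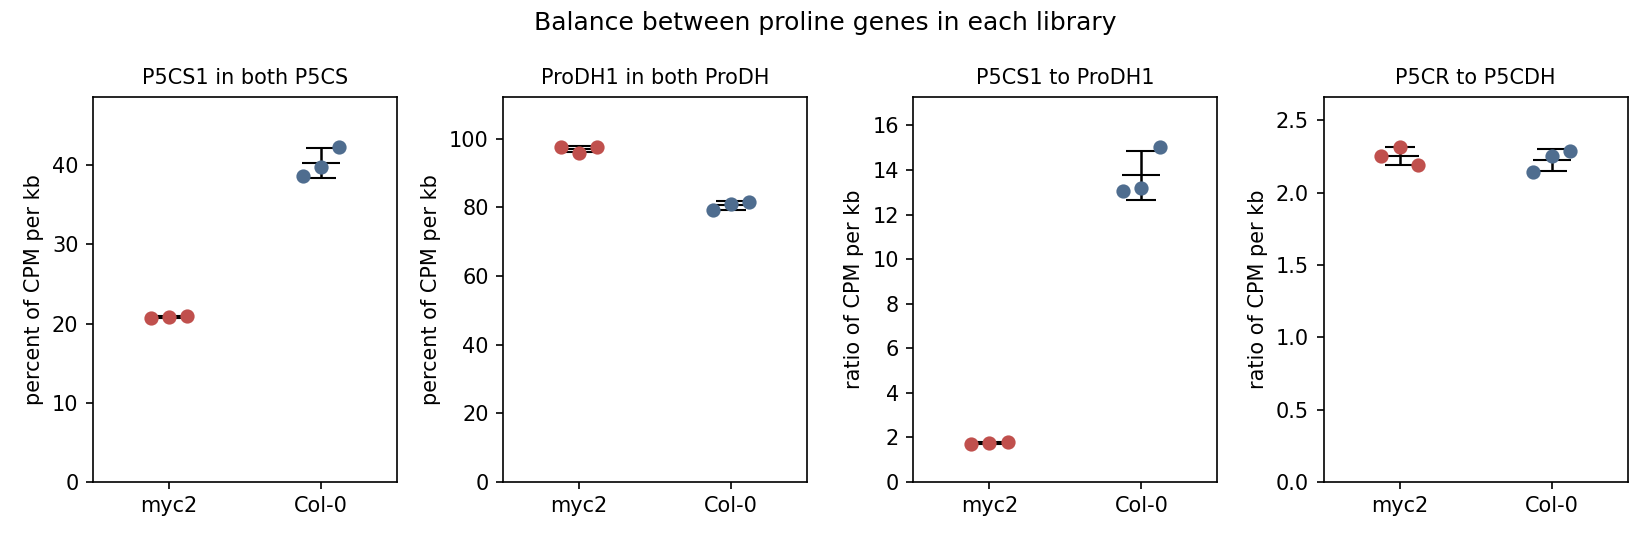
Share of P5CS1 in the summed P5CS level, share of ProDH1 in the summed ProDH level, and ratios of P5CS1 to ProDH1 and of P5CR to P5CDH, from CPM per kb of exon in each of 3 myc2 and 3 Col-0 libraries, with mean and SD as bars. The first 3 measures do not overlap between genotypes, and the ratio of P5CR to P5CDH does.

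The order of the levels per kb also differed. In myc2 it ran P5CS2 (124 CPM per kb), P5CR (63.8), P5CS1 (32.8), P5CDH (28.3), ProDH1 (18.9) and ProDH2 (0.584), and no neighbours in this order overlapped between libraries. In Col-0 it ran P5CS2 (123 CPM per kb), P5CS1 (82.9), P5CR (80.4), P5CDH (36.1), ProDH1 (6.03) and ProDH2 (1.46), and only P5CS1 and P5CR overlapped. P5CS1 thus stood beside P5CR in Col-0 and below it in myc2.

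The members were also set against each Col-0 run, as read from the headers, in 1 fit with 3 groups. Col-0 replicate 3 is then a group of 1 library with no spread of its own, assumed to vary like the other groups. Only effect sizes are therefore given for its contrasts. Against Col-0 replicates 1 and 2 the log2 fold change was −1.28 for P5CS1, 1.64 for ProDH1, −1.36 for ProDH2, −0.27 for P5CR and −0.31 for P5CDH. Against Col-0 replicate 3 it was −1.44 for P5CS1, 1.67 for ProDH1, −1.20 for ProDH2, −0.44 for P5CR and −0.42 for P5CDH. The same 5 genes were called in both, where 44.2% of all genes were called in the contrast with Col-0 replicates 1 and 2, and 45.1% in that with Col-0 replicate 3. Both contrasts share the 3 myc2 libraries. Between Col-0 replicate 3 and Col-0 replicates 1 and 2 the largest change of a member was 0.17 on the log2 scale, for P5CR. This is not small beside the P5CR change of −0.33 between genotypes. In the same contrast of Col-0 runs the change was −0.16 for ProDH2, 0.16 for P5CS1 and 0.11 for P5CDH. No other tool was run on that contrast. The run that holds all myc2 libraries has no Col-0 library, so its part in any difference between genotypes was not tested.

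The 1000 bases before each annotated gene start were searched on both strands for 4 short elements. ACTCAT is the bZIP element through which bZIP factors act on ProDH1, CACGTG is the G-box that MYC2 can bind, CATGTG is an E-box of the MYC2 type, and ACGTG is the core of the abscisic acid response element (ABRE) and lies inside every G-box. Of 18866 such windows of tested genes, 43.5% held the bZIP element, 16.1% the G-box, 37.6% the E-box and 54.7% the ABRE core. The window of P5CS1 held none of these letters, which says nothing about other positions. P5CS2 had 1 match each to the bZIP element, the G-box and the E-box and 4 to the ABRE core, and ProDH2 had 1 to the G-box and 4 to the ABRE core.

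P5CR had 8 matches to the ABRE core, of which 6 lay inside its G-boxes, and P5CDH had 1. The 3 genes with repeated matches to the G-box or the bZIP element are shown. ProDH1 had 3 ACTCAT matches, a number reached in 2.70% of the windows, at 411, 283 and 24 bases before the start, and 1 CATGTG match. The stretch chr3:12451826-12452001, minus strand, holds 2 of the ACTCAT matches and the CATGTG match, which reads CACATG here, in capitals.
ProDH1: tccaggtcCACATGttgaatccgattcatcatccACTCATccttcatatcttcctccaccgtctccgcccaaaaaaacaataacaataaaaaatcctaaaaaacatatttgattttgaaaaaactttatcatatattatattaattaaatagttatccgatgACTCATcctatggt
P5CDH also had 3 ACTCAT matches, of which a pair in opposite directions lies 117 to 102 bases before the start (chr5:25103406-25103437, minus strand), in capitals.
P5CDH: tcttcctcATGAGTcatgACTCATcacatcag
P5CR had 3 CACGTG matches, a number reached in 0.588% of the windows. They lie 54 bases apart in a repeat (chr5:4788512-4788641, minus strand), and 72 of the 76 bases that face each other when the stretch is shifted by that distance were identical.
P5CR: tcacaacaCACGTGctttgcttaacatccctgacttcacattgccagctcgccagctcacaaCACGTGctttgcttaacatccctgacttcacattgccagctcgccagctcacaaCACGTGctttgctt
The capitals mark the G-boxes. Genes with ACTCAT matches included 1 that rose (ProDH1), 1 that fell (P5CDH) and P5CS2, which did not pass the test, and a match is a description of the letters only.

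**Figure D4:**
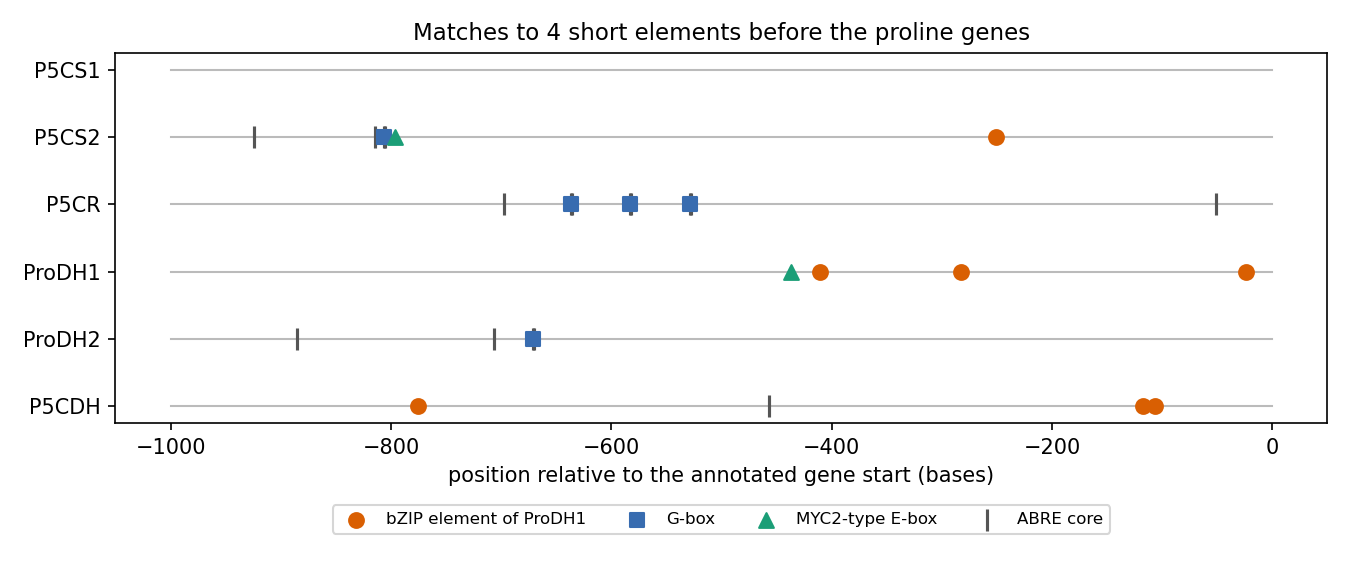
Matches to the bZIP element of ProDH1 (circles), the G-box (squares), the MYC2-type E-box (triangles) and the ABRE core (ticks) in the 1000 bases before each proline gene, by distance from the annotated start. P5CS1 has no match, P5CR has 3 evenly spaced G-boxes, and ProDH1 and P5CDH have 3 circles each.

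Genes around the pathway were taken from 4 lists of 27 genes in all, of which 20 were tested, 4 rose and 4 fell, a share near that of all genes tested (36.3%). Their median log2 fold change was −0.01. Among 6 enzymes that join proline to ornithine and glutamate, 1 rose, 1 fell and 4 did not pass. ARGAH2, an arginase that releases ornithine and a known jasmonate-induced gene, was at 218 ± 10.2 CPM in myc2 and 352 ± 39.7 CPM in Col-0 (SD, n = 3 each). Its log2 fold change was −0.69 (edgeR adjusted p = 4.15e-05). Against Col-0 replicates 1 and 2 it was −0.78, and against Col-0 replicate 3 alone −0.50. GDH2, a glutamate dehydrogenase, had a log2 fold change of 0.31 (edgeR adjusted p = 0.0282), which was 0.23 against Col-0 replicate 3 alone. OAT, the ornithine aminotransferase whose product also enters the proline route, was at 29.6 ± 0.215 CPM in myc2 and 30.5 ± 2.0 CPM in Col-0 (SD, n = 3 each), a log2 fold change of −0.04 with an interval of −0.21 to 0.12. GDH1 had a log2 fold change of 0.13 and ARGAH1 of 0.12 (edgeR adjusted p = 0.176 for GDH1 and 0.295 for ARGAH1).

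Of 8 transporters, 7 were tested, 1 rose and 2 fell. AAP1, an amino acid permease that carries proline among other amino acids, was at 55.3 ± 3.22 CPM in myc2 and 94.9 ± 7.47 CPM in Col-0 (SD, n = 3 each; log2 fold change −0.78, edgeR adjusted p = 1.01e-05). AAP6, a permease of the same family, had a log2 fold change of −0.33 (edgeR adjusted p = 0.00902), which became −0.51 with Col-0 replicate 3 alone as the reference. LHT1, an importer of amino acids with broad specificity, had a log2 fold change of 0.55 (edgeR adjusted p = 0.0127), but only 0.29 with Col-0 replicate 3 alone as the reference. None of the 3 ProT genes, which encode carriers of proline and compatible solutes, passed, ProT3 having the lowest adjusted p (log2 fold change −0.25, edgeR adjusted p = 0.0521). Against Col-0 replicate 3 alone the log2 fold change was larger in size, −0.41 for ProT3 and −0.23 for ProT1.

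The bZIP factors of the C and S1 groups bind ACTCAT in the ProDH1 promoter as pairs. All 5 S1 group genes of the list (bZIP1, bZIP2, bZIP11, bZIP44 and bZIP53) were listed at 0 reads in all 6 libraries, and these counts do not tell whether they were silent or left uncounted. Of the 4 C group genes, bZIP63 fell to 17.8 ± 0.880 CPM in myc2, against 23.4 ± 2.17 CPM in Col-0 (SD, n = 3 each). Its log2 fold change was −0.39 (edgeR adjusted p = 0.00612), but only −0.25 against Col-0 replicate 3 alone. bZIP10 rose with a log2 fold change of 0.30 (edgeR adjusted p = 0.0171), while bZIP9 was at −0.04 and bZIP25 at 0.01 on the same scale (edgeR adjusted p = 0.765 for bZIP9 and 0.913 for bZIP25).

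Of 4 factors known to act on P5CS1, HY5, a light-signalling bZIP protein that promotes its transcription, had 1241, 1298 and 1332 reads in myc2, against 584, 529 and 576 reads in Col-0. HY5 rose 2.07-fold (log2 fold change 1.05, edgeR adjusted p = 6.50e-06), and the genotypes did not overlap. Its homologue HYH had a log2 fold change of 0.16 and PHR1, the regulator of phosphate starvation, of 0.10 (edgeR adjusted p = 0.505 for HYH and 0.507 for PHR1). MYB2 had at most 10 reads in a library and was not tested. Against Col-0 replicates 1 and 2 the log2 fold change was 0.94 for HY5 and 0.007 for HYH. With Col-0 replicate 3 alone as the reference it was 1.29 for HY5 and 0.53 for HYH. In myc2 HY5 was higher and P5CS1 lower, and a link between them was not tested.

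**Figure D5:**
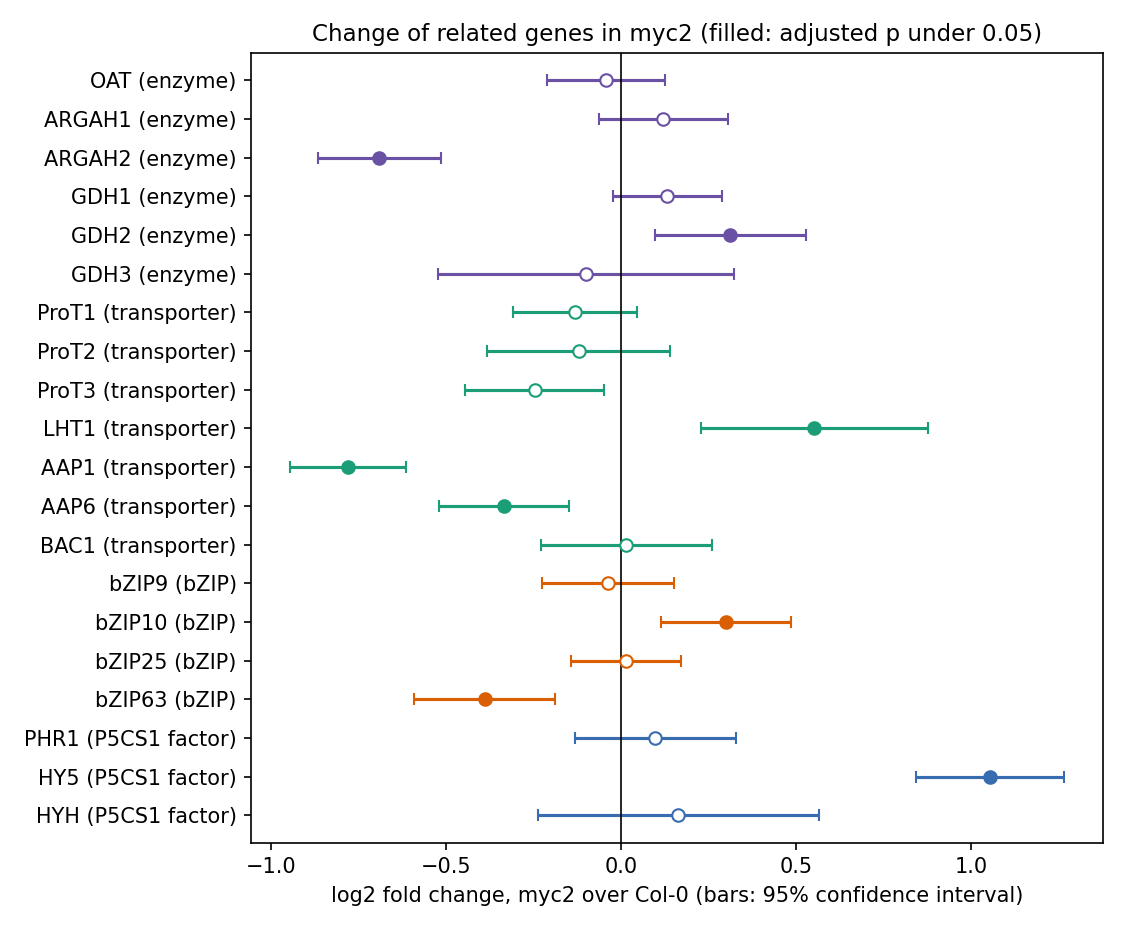
Fitted log2 fold change, myc2 over Col-0, with 95% confidence interval, of the 20 tested genes of the related lists (enzymes purple, transporters green, bZIP factors orange, factors acting on P5CS1 blue). Filled points passed an adjusted p of 0.05, 4 to the right of 0 and 4 to the left, with HY5 farthest right at 1.05 and AAP1 farthest left at −0.78.

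Likeness of pattern was measured as the root mean square difference of log2 CPM, centred over the 6 libraries, among genes of at least 5 CPM on average. Nearest to P5CS1 were AT5G60680 (difference 0.0373), AT5G17350 (0.0493) and FC1, a ferrochelatase gene (0.0494). Nearest to ProDH1 were AT2G36970 (0.0451), AT1G78170 (0.0891) and AT2G44940 (0.0956), and nearest to ProDH2 were AT3G54000 (0.163), AT2G27830 (0.179) and AT1G72940 (0.181). P5CR was nearest to AAC1, a gene of the mitochondrial ADP/ATP carriers (0.0191), to c-NAD-MDH1, a cytosolic malate dehydrogenase gene (0.0217), and to AT4G22240 (0.0247), and P5CDH to AT2G47390 (0.0205), EMB1144 (0.0224) and LOS1 (0.0226). P5CS2 was nearest to AT5G36230 (0.0112), AT1G21480 (0.0118) and B ALPHA (0.0121), whose levels also differed little between the genotypes. With 6 libraries in 2 groups, these differences mostly rank genes by how close their change between genotypes is to that of the member.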

How the data were processed

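Poly(A) RNA of 3 myc2 and 3 Col-0 shoot samples was made into libraries (TruSeq) and sequenced. The submitters' processing notes name fastp, HISAT2, SAMtools, StringTie and TAIR10, and for versions, counting program and strand setting the sources used here give nothing. The authors deposited whole-number read counts per gene for each library, not normalized. A further deposited table holds their own comparison (fold changes and p-values) and was not used.

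Genes were kept by filterByExpr and tested with the quasi-likelihood test of edgeR 4.0.16 in R 4.3.3 (limma 3.58.1), scaled by trimmed mean of M-values, genotype as the only term, Benjamini-Hochberg adjustment over 18961 genes and a threshold of 0.05. The biological coefficient of variation was 8.44%. The edgeR function was tested on simulated counts with 1 dispersion for all genes, and the other calculations were not tested in this way. Replicates of a genotype differed by more than sampling noise, as measured by chi-square per degree of freedom. It was 2.46 to 3.11 between myc2 libraries and 4.62 between Col-0 replicates 1 and 2. Pairs with Col-0 replicate 3 were at 16.5 and 20.1. Each library counted as 1 replicate, and these values do not show whether the libraries are independent. Symbols, exon lengths and sequences came from the RefSeq TAIR10.1 annotation and genome, matched by identifier for 97.3% of genes; sequences were aligned with Biopython 1.88.

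The members, the lists and the rule for named genes were chosen with earlier results of these data known. The rule named all 6 members, MYC2, up to 4 members of each related list by adjusted p, those at 0 reads, and the 3 genes nearest to each member in pattern. SRO5 and the other neighbouring genes, OAT, MYB2 and the markers named were added after their values were seen. Alternatives were other scalings, DESeq2 1.42.0, limma-voom, other filters, each library left out, a block on replicate number, each Col-0 run, thinned counts, and levels not divided by length.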

Additional observations from a re-analysis of the deposited data

How the results depend on the processing

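The direction of the 5 called members did not change under any of the 17 alternatives. Their side of the threshold did not change in those with more than 1 library per genotype. ProDH2 had 16, since a filter of 5 CPM in 3 libraries removed it, leaving 4 called members. The contrast with Col-0 replicate 3, which leaves 1 Col-0 library, is among the alternatives and was read for direction only. With single libraries left out, the log2 fold change was −1.39 to −1.28 for P5CS1, 0.01 to 0.03 for P5CS2, −0.37 to −0.27 for P5CR, 1.63 to 1.67 for ProDH1, −1.63 to −1.16 for ProDH2 and −0.40 to −0.31 for P5CDH. The count of all genes called was 5032 to 8417 in those fits. By library totals only, 64.9% of 7347 called genes were higher, against 48.5% of 6889 in the main scaling, and the median log2 fold change was 0.10 rather than 0.01; P5CS2 was at 0.11 there and still did not pass. Not divided by length, the P5CS1 share in myc2 was 22.0%, and the ratio of P5CS1 to ProDH1 was 2.37 in myc2 and 18.8 in Col-0. With the replicate number as a block, 6639 genes and the same 5 members were called. Deviations of same-numbered libraries correlated by −0.0249 to 0.0229, and those of differently numbered libraries by −0.0297 to 0.0384. These values show no pairing by number, and whether same-numbered libraries shared a planting was not tested. The depth limits ProDH2 most, with 25 to 81 reads per library, and S1 bZIP genes cannot be described.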
